A study of Mus musculus with 6 samples.

Results

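S100g encodes calbindin-D9k, the small EF-hand protein that carries calcium through the cytosol of absorptive epithelia, and it is described here with 6 further genes of epithelial calcium transport. The group is Trpv6, the apical calcium entry channel, Atp2b1 and Atp2b4, calcium pumps of the plasma membrane, Vdr, the vitamin D receptor, Cyp24a1, the enzyme that inactivates active vitamin D, and Casr, the extracellular calcium-sensing receptor. The 7 genes were picked by symbol, S100g because it stood among the genes with the smallest p-values of this comparison, so its difference between groups is given as a description. Of the 7, 6 have a row among the 17256 genes of the table, and all 6 passed edgeR's expression filter, which left 13071 genes. Cyp24a1 is not analysed here.

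The libraries come from antrum epithelium of C57BL/6 mice, the lining of the distal stomach. All 6 carry a model of atrophic gastritis induced over 20 weeks with the alkylating carcinogen MNNG and a drug spelled Ranitine in the labels. Afterwards 3 received vehicle and 3 received PEEPA-P5 by gavage for 2 weeks, a compound given only by this code. The labels number the libraries 1 to 3 in each group but do not say that they came from separate mice, and age, sex and dose are not used here; the spread behind every p-value is that between these libraries and may be technical.

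In absorptive epithelia, calcium enters through Trpv6, is buffered and ferried by calbindin-D9k, and leaves across the basolateral membrane through plasma membrane calcium pumps, chiefly Atp2b1. Active vitamin D, bound to Vdr and its partner Rxra, is known to induce this set in the duodenum, and Cyp24a1 then limits the hormone. In the antrum, Casr is known from the gastrin-producing G cells, where it senses luminal calcium and amino acids.

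Total counts per library ran from 16388844 to 16903545. Antral pit markers (6 of 6 present, among them Muc5ac and Tff1) summed to 310339 to 357495 TPM under vehicle and 363788 to 405997 TPM under PEEPA-P5, and Gast, the gastrin gene of the antrum, was detected in every library with 714 to 32314 counts. TPM is a transcript share that takes transcript length into account. PEEPA-P5 3 stood apart by its low level of other cell types: fibroblast markers summed to 5.04 TPM there against 39.5 to 111 TPM elsewhere, and endothelial markers to 1.94 TPM against 8.47 to 21.4 TPM. Vehicle 3 stood apart by its chief-cell markers (4 of 4 present, among them Pgc), which summed to 68268 TPM there against 2069 to 22555 TPM elsewhere. It was the lowest library in CPM for S100g and for other calcium-related genes, among them Vdr, Atp2b1, S100a10, Anxa2, Mcu, Stim2 and Atp2c2. The part of chief cells in these levels was not tested.

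Calbindin-D9k transcripts were the most abundant of the group per length. S100g (Entrez 12309) was at 52.9, 57.5 and 31.3 TPM in vehicle 1, 2 and 3 and at 143, 99.5 and 84.9 TPM in PEEPA-P5 1, 2 and 3. Every PEEPA-P5 library lay above every vehicle library, and vehicle 3 was the lowest of all. In rounded counts these are 197, 208 and 118 against 539, 374 and 331. The exact 95% Poisson interval was 97.7 to 141 for the lowest of these counts and 494.5 to 586.5 for the highest, and covers counting error only. In CPM, counts scaled to library size, S100g stood at 25.5 ± 6.02 under PEEPA-P5 against 10.04 ± 2.15 under vehicle (SD, n = 3 each). The fitted log2 difference was 1.34 with a standard error (SE) of 0.23, or 2.54-fold. Between libraries of the same number the log2 CPM difference was 1.51, 0.95 and 1.54. In bulk tissue, a change in the number of cells of a type and a change in RNA per cell cannot be told apart.

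**Figure D1:**
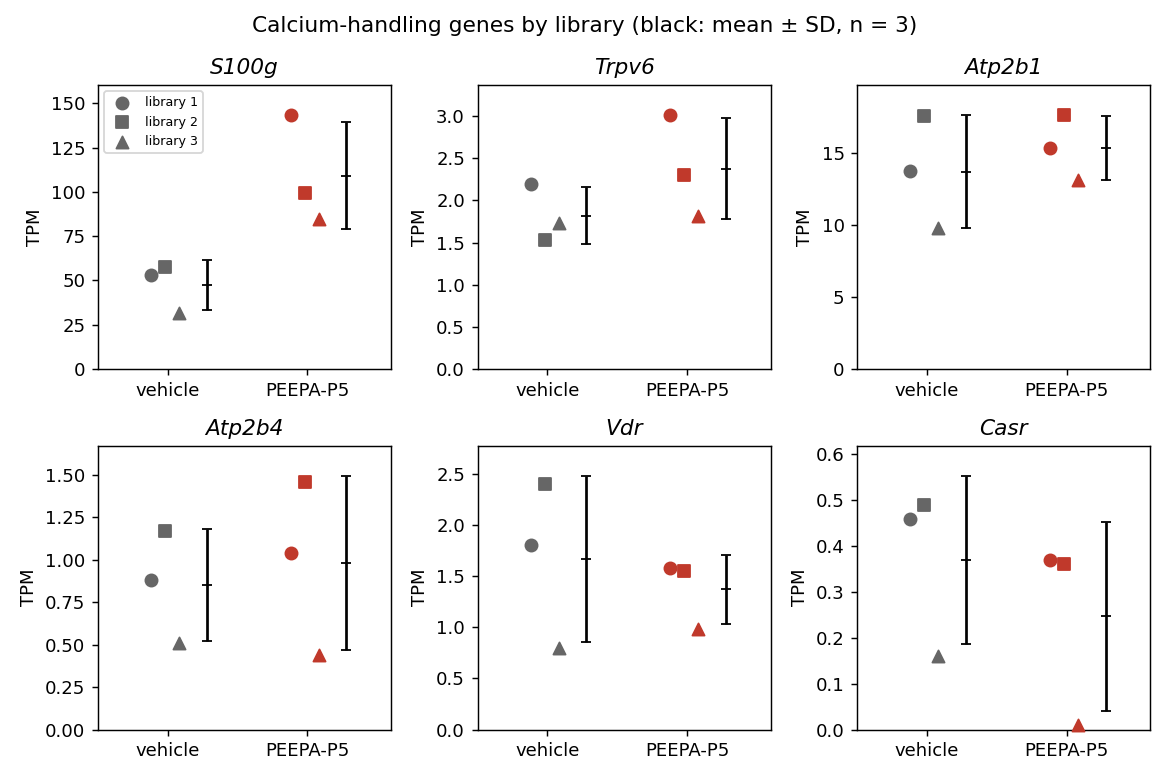
TPM of the 6 measured genes in each library, vehicle in grey and PEEPA-P5 in red, with the library number as marker shape and the mean ± SD of 3 libraries in black. S100g is the gene whose groups are separate, at 31.3 to 57.5 TPM under vehicle and 84.9 to 143 TPM under PEEPA-P5.

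Of the 6 measured genes, 1, S100g, had groups that did not overlap in CPM. Of all tested genes 20.4% did not overlap, counting 9.74% higher and 10.7% lower under PEEPA-P5, and nothing is read from the member count because the gene was picked on this contrast. By edgeR's quasi-likelihood test 0 of the 13071 genes (0%) passed an adjusted p of 0.05, the smallest adjusted p being 0.412. An unadjusted p under 0.05 was reached by 774 genes in the higher direction (5.92%) and 802 in the lower (6.14%), or 12.1% in all. DESeq2 called 39 genes higher and 62 lower, and limma-voom called 0.

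S100g had no near copy that could share its reads: 0% of its 31-base stretches occur in transcripts of other genes, and no exon of another gene overlaps its exons in the GENCODE annotation. The other calbindins were close to absent. Calb1, which encodes calbindin-D28k, never exceeded 1 count per library, and Calb2, which encodes calretinin, at most 3, so that S100g made up at least 99.7% of the summed TPM of the 3 genes in every library. Among the 18 genes of the S100 family that were measured, S100g ranked 7 or 8 in every library by TPM. It held 0.588% to 1.00% of their summed TPM under vehicle and 0.873% to 1.81% under PEEPA-P5, overlapping ranges. S100a6 and S100a11, broadly expressed epithelial members, held 39.4% to 51.0% and 32.3% to 38.6%. The summed TPM of the 18 genes was itself separate between groups, at 5325 to 7284 under vehicle and 7918 to 9718 under PEEPA-P5. S100a6 was at 2262 to 3343 TPM under vehicle and 3485 to 4953 TPM under PEEPA-P5. S100a11 was at 2041 to 2695 and 2820 to 3139 TPM. Separation upward in TPM was therefore not particular to S100g, while S100a10, S100a4 and S100a7l2 overlapped in TPM.

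The promoter of S100g is shown beside that of Trpv6, because both genes are textbook targets of vitamin D and only the first had separate groups. Each line holds the 250 bases before the annotated start, 5′ to 3′ on the gene's strand, from RefSeq. S100g lies at chrX:162964600-162964849 and Trpv6 at chr6:41636406-41636655 (GRCm38.p6, minus strand in both cases). Capitals mark AGGTCA, the half-site of nuclear receptors such as Vdr, on either strand (read as TGACCT on the opposite strand).
S100g: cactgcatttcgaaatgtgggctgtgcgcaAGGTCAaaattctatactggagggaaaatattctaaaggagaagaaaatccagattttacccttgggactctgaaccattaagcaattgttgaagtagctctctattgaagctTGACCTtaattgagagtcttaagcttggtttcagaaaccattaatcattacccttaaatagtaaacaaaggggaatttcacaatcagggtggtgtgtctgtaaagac
Trpv6: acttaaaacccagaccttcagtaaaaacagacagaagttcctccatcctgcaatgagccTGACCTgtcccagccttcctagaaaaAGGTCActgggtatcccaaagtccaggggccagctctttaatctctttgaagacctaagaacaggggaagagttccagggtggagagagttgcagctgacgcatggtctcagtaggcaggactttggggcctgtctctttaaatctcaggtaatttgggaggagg
Both windows hold 2 half-sites, 1 on each strand. In S100g the matches begin 220 and 107 bases before the start, and in Trpv6 191 and 165 bases before it. Of 32851 RefSeq promoter windows of the same length, 14.0% hold at least 1 AGGTCA. The paired form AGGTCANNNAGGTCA, which contains the half-site and was also searched on both strands, is in neither window and in 0.00609% of all windows. The GC box GGGCGG, searched likewise and present in 32.7% of windows, is in neither, and the windows of Atp2b4 and Casr also lack it. The Vdr window holds 3 matches and the 2 windows of Atp2b1 hold 4 and 3. A match is a description of the letters only. The S100g window had the lowest GC content of the 7 windows of these genes, at 38.4%. The others were at 45.6% for Atp2b4, 48.8% for Casr, 49.6% for Trpv6, 61.2% for Vdr and 78.4% and 80.8% for Atp2b1.

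Trpv6 (Entrez 64177), the entry channel, was a low-level transcript at 2.19, 1.53 and 1.73 TPM in vehicle 1, 2 and 3 and 3.01, 2.30 and 1.82 TPM in PEEPA-P5 1, 2 and 3. PEEPA-P5 1 was the highest library, but PEEPA-P5 3 lay within the vehicle range. Its fitted log2 difference was 0.47 with a standard error of 0.27, from 67 to 136 counts per library. It was 0.30 without vehicle 2, 0.29 without PEEPA-P5 1 and 0.25 on log2(TPM + 1). Only 1.22% of its 31-base stretches are shared with other genes, mainly the related channel gene Trpv5, which was not analysed here.

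The pumps that extrude calcium were led by Atp2b1 (Entrez 67972), at 13.7, 17.6 and 9.77 TPM under vehicle and 15.3, 17.6 and 13.1 TPM under PEEPA-P5. The groups overlapped in TPM and in CPM, and vehicle 3 was the lowest library. In CPM it stood at 109 ± 6.88 under PEEPA-P5 against 89.2 ± 15.7 under vehicle (SD, n = 3 each). In that unit the overlap was narrow, the lowest library under PEEPA-P5 being at 103.4 and the highest under vehicle at 103.6. The fitted log2 difference was 0.29 (SE 0.14), and 0.16 without vehicle 3. Atp2b4 (Entrez 381290), a second pump of the family, was at 0.88, 1.17 and 0.51 TPM under vehicle and 1.04, 1.46 and 0.44 TPM under PEEPA-P5. Both libraries numbered 3 were its lowest, and the log2 difference was 0.31 (SE 0.41), or -0.072 without PEEPA-P5 2. Of the summed TPM of the 4 pump genes, Atp2b1 held 92.1% to 93.9% under vehicle and 91.9% to 96.3% under PEEPA-P5, and Atp2b4 held 4.90% to 6.12% and 3.23% to 7.62%. Atp2b2 had 9 to 39 counts per library, and Atp2b3 had at most 1. The sodium-calcium exchanger gene Slc8a1, the other route of extrusion, was at 2.12 ± 1.85 CPM under PEEPA-P5 against 3.65 ± 1.73 CPM under vehicle (SD, n = 3 each) and lowest in PEEPA-P5 3.

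Vdr (Entrez 22337) was at 1.80, 2.40 and 0.80 TPM under vehicle and 1.58, 1.55 and 0.98 TPM under PEEPA-P5. The PEEPA-P5 libraries all lay inside the vehicle range. The fitted log2 difference was -0.15 with a standard error of 0.35, and it was 0.11 without vehicle 2. Its dimer partner Rxra had the same mean level in both groups, 115 ± 6.40 CPM under PEEPA-P5 and 115 ± 6.49 CPM under vehicle (SD, n = 3 each; SE of the log2 difference 0.09). Cyp27b1, which makes active vitamin D, was at 2.03 ± 1.22 against 3.28 ± 0.65 CPM, with 12 to 73 counts per library and the lowest in PEEPA-P5 3 (edgeR adjusted p 0.571).

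Casr (Entrez 12374) was the scarcest of the group, at 0.46, 0.49 and 0.16 TPM under vehicle and 0.37, 0.36 and 0.01 TPM under PEEPA-P5. The value in PEEPA-P5 3 is 1 count, with an exact 95% Poisson interval of 0.025 to 5.57 counts, against 19 to 53 counts in the other libraries. The log2 difference was -0.53 (SE 0.90), or 0.020 without PEEPA-P5 3. Gast, the G-cell product, had its lowest counts in the same 2 libraries as Casr: 714 in PEEPA-P5 3 and 2104 in vehicle 3, against 17195 to 32314 elsewhere.

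**Figure D2:**
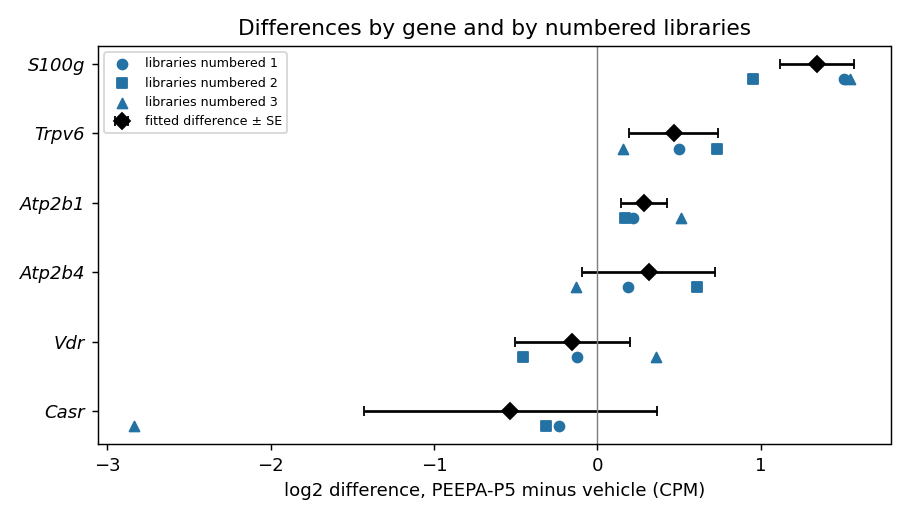
Log2 difference in CPM, PEEPA-P5 minus vehicle, for each gene: black diamonds with bars are the fitted difference ± SE over 6 libraries, and blue symbols are the differences between libraries of the same number. For S100g the 3 numbered differences are 0.95 to 1.54, and for Casr the libraries numbered 3 lie at -2.84.

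By mean TPM over the 6 libraries the order was S100g (78.2 ± 39.98, SD over 6 libraries), Atp2b1 (14.5 ± 2.99), Trpv6 (2.10 ± 0.53), Vdr (1.52 ± 0.58), Atp2b4 (0.92 ± 0.39) and Casr (0.31 ± 0.19). S100g and Atp2b1 each lay above the whole range of the next gene down. Trpv6 and Vdr overlapped, with Trpv6 higher in 5 of 6 libraries. Vdr and Atp2b4, and Atp2b4 and Casr, also overlapped in range, although the first of each was higher in 6 of 6 libraries. The mean TPM of S100g lay at the 91.9 percentile of all tested genes, that of Atp2b1 at 66.8, and the others at 4.86 to 26.1.

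The members did not vary as a block. Vdr, Atp2b1, Atp2b4 and Casr each had their 2 lowest TPM values in vehicle 3 and PEEPA-P5 3, the libraries in which fibroblast markers also summed lowest, at 39.5 and 5.04 TPM. In CPM this held for Vdr, Atp2b4 and Casr, whereas Atp2b1 was at 103.4 CPM in PEEPA-P5 3, above vehicle 1 and vehicle 3. S100g was lowest in vehicle 3 but its value in PEEPA-P5 3 was above every vehicle library. The part of other cell types in these levels was not tested. In TPM, S100g and Trpv6 were both highest in PEEPA-P5 1 and next in PEEPA-P5 2. In CPM, S100g stood at 21.8 in PEEPA-P5 2 and 22.3 in PEEPA-P5 3.

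Likeness to S100g was ranked over the tested genes, with predicted gene models left out of both rankings given here. The genes most like S100g by Pearson r of log2 CPM over the 6 libraries were Exoc3 (r = 0.992), Lamtor4 (0.991), Lsm4 (0.976), Trappc4 (0.976) and Cyb5r4 (0.976), a description over libraries that share the 2 groups. All 5 were separate between groups with smaller log2 differences than S100g, from 0.15 for Exoc3 to 0.41 for Lsm4. By the deviations from the group means, a measure that leaves out the difference between groups, the list was Mdfi (0.999), Pbrm1 (0.998), Gimap1 (0.997), Pigu (0.993) and Parn (0.989). The 2 sets have no gene in common. Each takes the highest r of all tested genes over only 6 libraries, so values this high can arise between unrelated genes. Both lists are descriptions only.

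S100g is best known from duodenal enterocytes, so enterocyte markers were set beside it. The 18 markers summed to 1081 to 1204 TPM under vehicle and 1105 to 1244 TPM under PEEPA-P5, overlapping ranges, and 6 of the 18 (Sis, Lct, Cdx1, Mep1a, Fabp1 and Apoc3) had at most 25 counts in any library. The sum joins markers that differ in direction, 7 of 12 tested having a positive log2 difference. Its largest part was Rbp2, at a mean of 477 TPM under PEEPA-P5 against 402 under vehicle. Mean TPM was 29.7 against 277 for Apoa1 and 270 against 166 for Fabp2. In CPM the brush-border gene Vil1 was higher in every PEEPA-P5 library than in every vehicle library, at 366 ± 16.0 against 247 ± 128 CPM (SD, n = 3 each). Its log2 difference was 0.57 with a standard error of 0.41 (edgeR adjusted p 0.571). Vehicle 3 held 1598 counts of Vil1, against 5399 to 6269 in the other libraries. In counts its groups overlapped, with 6019 in vehicle 1 against 5954 in PEEPA-P5 2 and 5537 in PEEPA-P5 3. Apoa1, an enterocyte apolipoprotein, had 10 to 1061 counts under PEEPA-P5 against 970 to 5967 under vehicle. Fabp2, a fatty acid carrier of enterocytes, had 4225, 4665 and 807 counts in PEEPA-P5 1, 2 and 3 and 2822, 1918 and 1153 under vehicle, and was lowest in PEEPA-P5 3. Alpi, intestinal alkaline phosphatase, had 870, 1931 and 5861 counts against 804, 1103 and 1284, and its highest library, PEEPA-P5 3, was the lowest of its group for S100g in TPM. Cdx2, the intestinal transcription factor, was at 3.19 ± 2.67 against 1.29 ± 0.69 CPM (SD, n = 3 each; edgeR adjusted p 0.509) and, at 11 counts, lowest among the PEEPA-P5 libraries in the library with the highest S100g.

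Other marker sums were separate between the groups as S100g was. Squamous markers of the forestomach (9 of 12 in the table) summed to 3.03 to 5.03 TPM under vehicle and 7.07 to 11.4 TPM under PEEPA-P5, although no library had more than 1 count of the basal keratins Krt5 and Krt14. Pit markers, given above, were likewise separate, and parietal markers summed to 599 to 3715 TPM under vehicle against 17.4 to 506 TPM under PEEPA-P5. The part of these cell types, or of enterocytes, in the S100g difference was not tested. Without PEEPA-P5 3, the library lowest in parietal and stromal markers, S100g had a log2 difference of 1.44; without vehicle 3, the library highest in chief and parietal markers, it was 1.18, and leaving out both libraries numbered 3 gave 1.27.

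**Figure D3:**
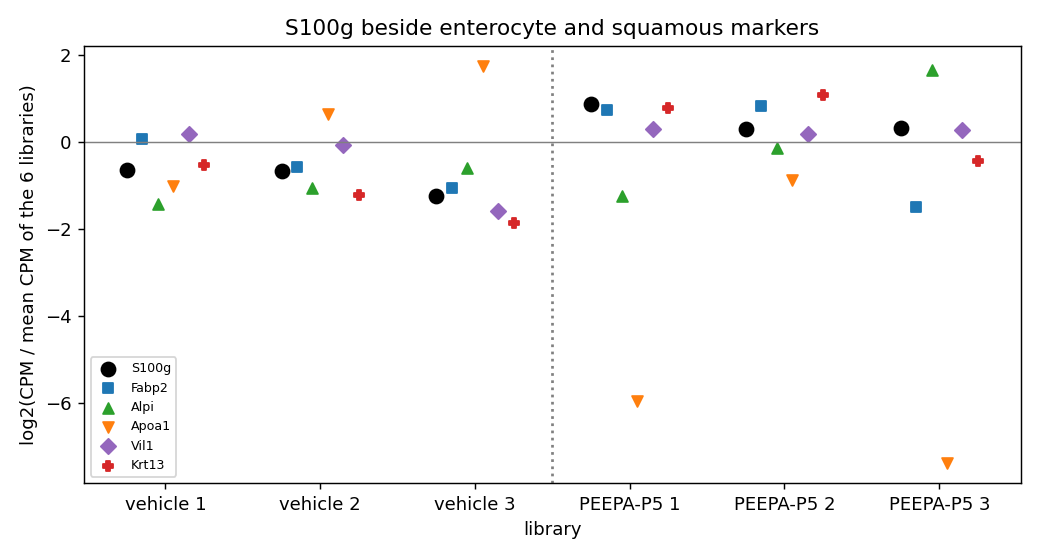
Log2 of CPM relative to the mean CPM of the 6 libraries for S100g (black circles), the enterocyte markers Fabp2, Alpi, Apoa1 and Vil1 and the squamous keratin gene Krt13, by library. S100g is above its mean in all PEEPA-P5 libraries, while Fabp2 is lowest in PEEPA-P5 3 and Apoa1 is low in PEEPA-P5 1 and 3.

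To place the group in its pathway, 10 lists of calcium genes were counted. Outside the 7 genes above they hold 95 genes, 90 of them in the table and 66 tested. By edgeR's quasi-likelihood test 0 passed the adjusted threshold; 9 were higher and 3 lower at an unadjusted p under 0.05, or 18.2% against 12.1% of all tested genes, and 11 were separate upward and 4 downward, or 22.7% against 20.4%. DESeq2 called 1 of them, Gc. The median log2 difference was 0.02 against -0.00467 over all tested genes. The count of 9 was 4 without vehicle 2, 4 without vehicle 3, 5 without PEEPA-P5 3 and 5 without both libraries numbered 3; the count of 3 became 5 when PEEPA-P5 2 was left out and 7 when vehicle 1 was. The share of all tested genes at that p, in either direction, also moved: it was 5.43% without vehicle 2, 5.72% without vehicle 3, 7.55% without PEEPA-P5 1, 8.76% without PEEPA-P5 3, 7.95% without both libraries numbered 3 and 15.6% without vehicle 1. With library totals in place of TMM factors the counts were 4 higher and 4 lower, and on log2(TPM + 1) they were 3 and 3.

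Among genes that vitamin D is known to induce, 7 of 8 tested genes had a positive log2 difference, but S100g, Trpv6 and Atp2b1 are 3 of those 8. The median of the 8 was 0.30, against -0.00467 over all tested genes, but it includes S100g, which was picked on this contrast. Without these 3 genes, the log2 differences were 1.02 for Abcb1a, 0.30 for Cdkn1a, 0.14 for Cldn2, 0.13 for Cldn12 and -0.06 for Cd14. Of the other 5, Abcb1a, the drug efflux pump gene, was at 6.81, 8.82 and 12.2 CPM under PEEPA-P5 against 3.39, 6.53 and 3.78 CPM under vehicle (log2 difference 1.02, SE 0.34, unadjusted p 0.0192, edgeR adjusted p 0.412). Slc30a10, a manganese transporter gene and intestinal vitamin D target, had at most 3 counts in any library. In the receptor pathway 1 of 11 tested genes reached an unadjusted p under 0.05, or 9.09% against 12.1% of all tested genes. That was Gc, the plasma carrier of vitamin D, with 26, 35 and 95 counts under vehicle against 3, 10 and 0 under PEEPA-P5 (log2 difference -3.55, SE 0.99, edgeR adjusted p 0.412; DESeq2 adjusted p 0.046). Its log2 difference was -4.95 without PEEPA-P5 2, -2.66 without vehicle 3, -2.12 without both libraries numbered 3 and -1.27 on log2(TPM + 1).

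The partners of the Trpv6 channel were higher in 3 of 5 tested genes at an unadjusted p under 0.05 (background 5.92%). S100a10 and Anxa2 form the annexin complex that brings the channel to the membrane. S100a10 was at 137, 138 and 218 CPM under PEEPA-P5 against 100.2, 119 and 54.2 CPM under vehicle. Anxa2 was at 688, 736 and 822 CPM against 617, 540 and 374 CPM. Rab11a, which recycles the channel to the surface, was at 215, 221 and 271 CPM against 192, 167 and 194 CPM. The groups were separate in all 3, under PEEPA-P5 3 highest in each (edgeR adjusted p 0.412 for each). The count fell to 1 without PEEPA-P5 3, with library totals and on log2 TPM.

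Mitochondrial calcium uptake had 3 of 10 tested genes higher and 0 lower at an unadjusted p under 0.05 (background 5.92% higher), and 4 of 10 separate upward (background 9.74%), with a median log2 difference of 0.26. Mcu, the pore of the uniporter, was at 390, 343 and 438 CPM under PEEPA-P5 against 337, 267 and 257 CPM under vehicle. Vdac1, the outer-membrane channel, was at 347 ± 35.5 against 284 ± 5.24 CPM (SD, n = 3 each; edgeR adjusted p 0.412 for Vdac1 and for Mcu). The count of 3 was 0 without vehicle 2, and 1 without vehicle 3, without both libraries numbered 3 and on log2 TPM.

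In the endoplasmic reticulum and Golgi the 2 named genes pointed in opposite directions. Atp2c2, a secretory-pathway calcium pump, was at 17.6, 16.4 and 13.2 CPM under PEEPA-P5 against 13.4, 8.69 and 8.13 CPM under vehicle, and the groups overlapped narrowly. Itpr2, an inositol trisphosphate receptor, was at 8.25, 10.6 and 4.84 CPM against 9.72, 22.5 and 32.8 CPM. They were the 2 of 7 tested genes of their list at an unadjusted p under 0.05 (background 12.1% in either direction). Stim2, a sensor of store calcium, was the 1 of 6 tested genes of store-operated entry at that p (background 12.1% in either direction). It was at 111 ± 18.0 against 80.4 ± 11.7 CPM (SD, n = 3 each). Ppp3ca, a catalytic subunit of calcineurin, was at 31.4 ± 0.21 against 48.7 ± 12.3 CPM, with all PEEPA-P5 libraries below all vehicle libraries (edgeR adjusted p 0.412 for each of the 4).

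No gene of the remaining lists reached an unadjusted p under 0.05 in edgeR's test. These were 7 tested genes of calcium entry, 5 of plasma membrane extrusion and 7 of calcium sensing and calciotropic hormones. Of the last list 6 genes, Casr among them, had a negative log2 difference. The median of that list was -0.59, against -0.00467 over all tested genes, with standard errors of 0.52 to 0.90 for its genes.

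**Figure D4:**
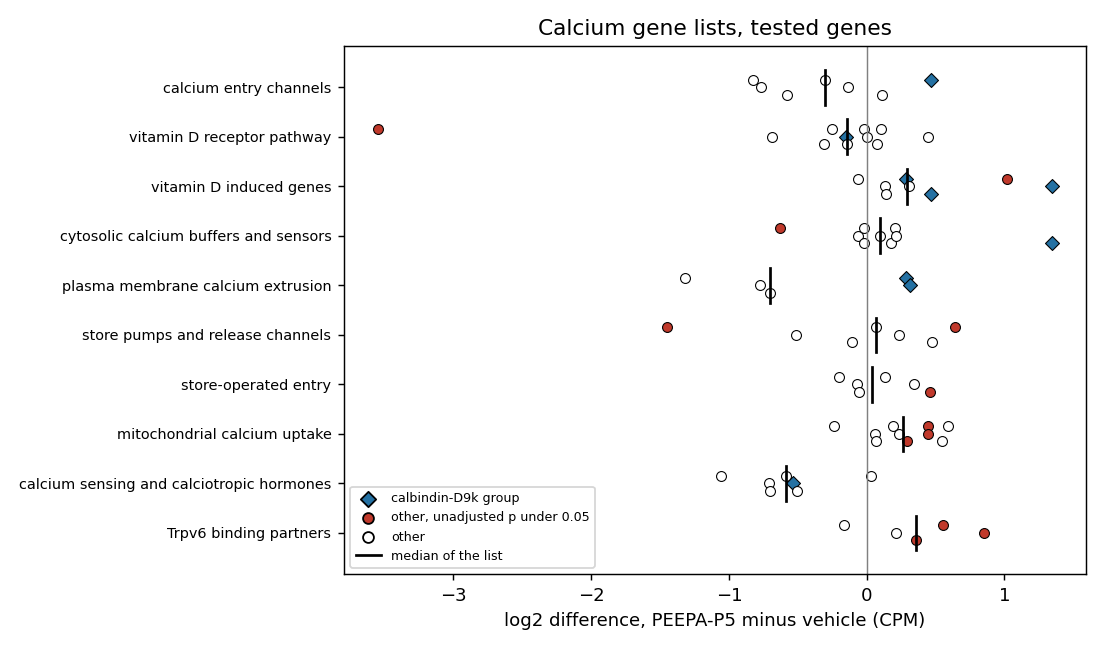
Log2 difference in CPM, PEEPA-P5 minus vehicle, of each tested gene in 10 calcium lists, with the 6 measured genes of the calbindin-D9k group as blue diamonds, other genes at an unadjusted p under 0.05 in red and list medians as black bars. S100g is the highest point, at 1.34, and Gc the lowest, at -3.55.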

How the data were processed

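Total RNA of antrum epithelium was sequenced in 6 libraries, 3 of each group. RSEM 1.2.12, Bowtie2 2.2.5 and build mm9 are named in the submitters' processing notes; settings and strand handling: not given in the sources used here. The authors deposited, per the file headers, an expected count, an FPKM and a TPM value for each gene and library; 9.82% of the expected counts were not whole, and all were rounded. TPM, which is scaled per transcript length, is used to compare levels between genes, and FPKM served no result. Their group means were not used.

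Rounded counts of the whole table were fitted with edgeR 4.0.16 (R 4.3.3, robust quasi-likelihood, TMM factors, expression filter, Benjamini-Hochberg adjustment at 0.05). Each standard error is the absolute log2 difference divided by the square root of the test's F. CPM uses TMM-scaled library sizes, and log2 CPM a prior count of 2. No library was treated as a duplicate, since the chi-square per degree of freedom between any 2 of them was at least 13.3. The deviations from group means of same-numbered libraries had correlations of 0.237, 0.346 and 0.235. Those of differently numbered libraries ran from -0.349 to 0.176. Deviations within a group sum to 0, so these correlations depend on each other and cannot settle a pairing. The numbers were treated as possible pairs only, and the labels do not state a pairing.

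The members and the gene lists were chosen with earlier results of these data known, so the members' differences are described without a test. Of the calcium lists, genes at an unadjusted p under 0.05 and 1 CPM were named, up to 3 in each direction, beside 11 genes named whatever their values. One gene that this rule names is not reported here. The fit was tested on simulated data. Alternatives were DESeq2 1.42.0, limma-voom and limma-trend on log2 TPM (limma 3.58.1), other scaling factors and filters, the replicate block and each library left out. Promoters are from RefSeq (GRCm38.p6), a later build than mm9. Shared sequence and overlapping genes were counted in GENCODE M21 transcripts and annotation.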

Additional observations from a re-analysis of the deposited data

How the results depend on the processing

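The log2 difference of S100g kept its direction in all 17 alternatives, between 1.203 and 1.36 under other tools, scalings, filters and pseudocounts, the replicate block and the removal of both libraries numbered 3, and between 1.13 and 1.45 with single libraries left out. With the replicate block it was 1.34. S100g was picked on this contrast, and every alternative refits the same libraries or a part of them. Its kept direction is therefore a description and no independent support. Trpv6, Atp2b1 and the 12 named genes of the calcium lists also kept their direction in all 17. The 12 were named for an unadjusted p under 0.05 in edgeR's test on these same libraries. Their kept direction is no independent support either. With 1 library left out, Vdr ran from -0.44 to 0.11, Atp2b4 from -0.072 to 0.63 and Casr from -0.97 to 0.020; the cause was not tested. Casr was at -1.34 in limma-voom and -0.92 with the replicate block, and Atp2b4 at 0.077 on log2(TPM + 1).

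DESeq2 called 39 genes higher and 62 lower where edgeR called 0; with single libraries left out edgeR called 0 to 1 higher, the 1 being without vehicle 1, and 0 lower. The 9 calcium genes higher at an unadjusted p under 0.05 were 4 with library totals, 3 on log2(TPM + 1), 3 on log2(TPM + 0.1), 5 without both libraries numbered 3 (chosen after seeing the data) and 4 to 9 with single libraries left out. The 3 lower ones were 5 with no count filter, which tests more genes, and 2 to 7 with single libraries left out. With the replicate block 11 calcium genes reached that p in either direction, 9 of them among the main 12, and no call at the adjusted threshold changed. Over all genes at that p, 49.1% were higher with TMM factors, 35.9% with upper-quartile factors, 23.6% with library totals and 20.5% on log2(TPM + 1). Casr had 1 to 53 counts per library and Gc 0 to 95.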
